A study of Homo sapiens with 36 samples.

Results

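Prostaglandins are lipid messengers made from arachidonic acid, and 9 genes of their synthesis, breakdown and sensing are described here among the 60675 genes of a count table. The list was chosen by gene symbol with earlier results of the same libraries known, among them the change of PTGS2 against vehicle in SW1783 at the low dose. Each of the 9 symbols matched a single Ensembl gene. Changes against the vehicle of the same batch are therefore a description of the members. Where such a change is said to meet the DESeq2 threshold, this too is descriptive and supports nothing about the choice. The same holds for differences between doses and between the lines, which rest on the treated libraries that chose the list, so their p-values for members are no independent evidence.

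In this pathway a phospholipase frees arachidonic acid from membranes, a cyclooxygenase turns it into prostaglandin H2, and terminal synthases turn that into prostaglandin E2, prostacyclin and others. PLA2G4A is the cytosolic phospholipase, PTGS1 and PTGS2 are the cyclooxygenases COX-1 and COX-2, and PTGES, PTGES3 and PTGIS are terminal synthases. HPGD is the dehydrogenase that inactivates prostaglandins, and PTGER2 and PTGER4 are the prostaglandin E2 receptors EP2 and EP4, both of which raise cAMP. COX-2 is an inducible enzyme known from inflammation, from gliomas and from colorectal tumours, in which HPGD is often low.

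RNA sequencing covered 36 libraries in 12 groups of 3 replicates, from SW1783, a human astrocytoma line, and HT29, a human colorectal adenocarcinoma line. The agents were ACD, extracted with hot water from the monkshood *Aconitum carmichaeli* Debeaux, and wortmannin, which blocks the lipid kinase PI3K, and the exposure lasted 24 h. In each line, batch B consisted of vehicle and of the ACD doses low (20 µg/mL), medium (100 µg/mL) and high (500 µg/mL), while batch A consisted of vehicle and of wortmannin at 10 µM. The labels name the ACD treatment as water extract of Aconiti Lateralis Radix Preparata and give the vehicle as 0.1% DMSO. Same-numbered vehicles of batches A and B resembled each other more than vehicles within a batch did (chi-square per degree of freedom of 1.46 to 1.64, against 2.06 to 17.3), so it is not known whether the batches had cultures of their own for the vehicle. The lines differed also in culture medium, CO2 supply and cell number per well, so a difference between the lines cannot be told apart from a difference in culture. Each line stands for a single tumour, and the labels do not say that replicates were separate cultures, so p-values measure the spread between these libraries.

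Total counts per library ranged from 15941255 to 33866644. Of the markers checked, VIM, FN1, COL1A2 and CD44 were counted in every SW1783 library, while the astrocyte markers GFAP and S100B stayed at or below 0.261 CPM (counts scaled to an equal library total) there. In HT29 all 6 epithelial markers were counted in every library. CD44 was counted there too, at 380 to 577 CPM against 1970 to 2860 CPM in SW1783, and FN1 at 0.69 to 2.88 CPM. Replicate 2 of the high dose in HT29 stood apart from the other libraries of its group, so values that rest on it are given below with and without it. Without it 4.0% of all genes were DEGs at that dose, by the definition given below. Replicate 1 of the batch B vehicles of HT29 stood apart too. Its chi-square per degree of freedom was 15.1 and 17.3 against the other vehicles, which had 4.04 between themselves. Its deviations from the group mean correlated with those of high dose replicate 2 (r = 0.497). It is kept in the values given without that high dose library, so those comparisons are not balanced. Other HT29 groups were uneven as well. Replicate 1 of the batch A vehicles had 14.8 and 17.0 against the others, which had 3.78 between themselves. The low dose libraries had 8.62 to 21.9 among themselves, and replicate 3 of that dose also correlated with high dose replicate 2 (r = 0.528). The fold changes given below for the low dose and for wortmannin in HT29 include these libraries. The share of mitochondrial ribosomal RNA in the counts was 0.91 to 0.96% in the batch B vehicles of SW1783, and 3.01 to 3.33%, 7.67 to 8.05% and 5.76 to 6.06% from the low to the high dose. In HT29 it was 1.14 to 1.22% in vehicle, and 0.98 to 1.14%, 1.96 to 2.18% and 11.27 to 12.52% from the low to the high dose. Its part in the results was not tested.

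The 250 bases before the annotated start of PTGS2 and of PTGER2 are shown because these are the DEGs among the members with a group mean of over 100 counts. They come from the RefSeq promoter table (GRCh38.p14), in which 8 of the 9 members had an entry. PTGS2 lies on the minus strand and its window is chr1:186680424-186680673, while PTGER2 lies on the plus strand with the window chr14:52314062-52314311. Both are printed 5′ to 3′ up to the last base before the start. Capitals mark matches, on either strand, to the TATA box letters TATAAA, the cAMP-response half-site CGTCA, the C/EBP-type site TTACGCAA and the NF-kB-type pattern GGGNNNNNCC, in which N is any base.
PTGS2: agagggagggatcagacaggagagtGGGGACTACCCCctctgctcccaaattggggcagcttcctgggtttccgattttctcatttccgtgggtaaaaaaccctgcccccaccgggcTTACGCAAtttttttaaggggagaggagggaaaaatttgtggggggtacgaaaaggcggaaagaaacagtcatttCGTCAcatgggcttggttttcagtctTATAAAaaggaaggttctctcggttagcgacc
PTGER2: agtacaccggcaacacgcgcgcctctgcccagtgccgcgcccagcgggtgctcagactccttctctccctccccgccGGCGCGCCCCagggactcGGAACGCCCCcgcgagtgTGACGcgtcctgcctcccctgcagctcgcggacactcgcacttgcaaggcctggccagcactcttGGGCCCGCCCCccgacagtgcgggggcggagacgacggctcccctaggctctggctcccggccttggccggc

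In the PTGS2 window the TATA box began 32 bases before the start, the half-site 58 bases and the C/EBP-type site 133 bases before it. The capitals furthest from the start are overlapping NF-kB-type matches of both strands. In PTGER2 the half-site lay on the minus strand, 137 bases before the start, and no TATAAA was present in this window. Its other capitals are NF-kB-type matches. The PTGS2 window lies in the first intron of another annotated PTGS2 transcript, and the PTGER2 window is upstream of the gene except for its last bases, which lie in an annotated transcript. Among the 35116 windows of the table, TATAAA was present in 10.7%, CGTCA in 21.2%, TTACGCAA in 0.148% and the NF-kB-type pattern in 54.4%. These matches describe letters only. PACERR, an antisense long non-coding RNA gene, overlaps the 5′ end of PTGS2 on the opposite strand, and the strand setting of the counting was not given in the sources used here. PACERR was low in SW1783, with group means of 4.1 to 8.5 normalized counts in batch B.

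PTGS2 lay below vehicle in SW1783 and above vehicle in HT29 at the low and medium doses of ACD, and in SW1783 the receptor gene PTGER2 and the breakdown gene HPGD were lower at the high dose. A differentially expressed gene (DEG) had a DESeq2 adjusted p-value under 0.05 and a change of more than 1.5-fold. In SW1783 the members with an adjusted p-value numbered 5, 6 and 9 from the low to the high dose and 7 with wortmannin, since DESeq2 leaves out genes of low mean count. Of these, 1 (PTGS2) was a DEG at the low dose, where 0.119% of all genes tested were DEGs, and 0 at the medium dose, where the share was 3.78%. At the high dose 2 (PTGER2 and HPGD) were DEGs, beside 17.7% of all genes, and with wortmannin 0, beside 2.67%. In HT29 the members with an adjusted p-value numbered 7, 7, 6 and 5 in the same order. There, 0 were DEGs at the low dose (0.285% of all genes), 1 (PTGS2) at the medium dose (0.786%), 1 (PTGS2) at the high dose (3.13%) and 0 with wortmannin (2.7%). Without replicate 2 of the high dose, 2 of 5 (PTGS1 and PTGS2) were DEGs there, beside 4.0% of all genes.

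By the adjusted p-value alone the members counted in SW1783 were 1 at the low dose (3.3% of all genes), 4 at the medium dose (30.1%), 4 at the high dose (45.0%) and 2 with wortmannin (31.7%). In HT29 they were 1 at the low dose (0.547%), 1 at the medium dose (1.96%), 1 at the high dose (8.41%) and 2 with wortmannin (20.7%), and 3 at the high dose when replicate 2 was left out (17.8%). Because these contrasts chose the members, nothing is read from these counts.

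**Figure D1:**
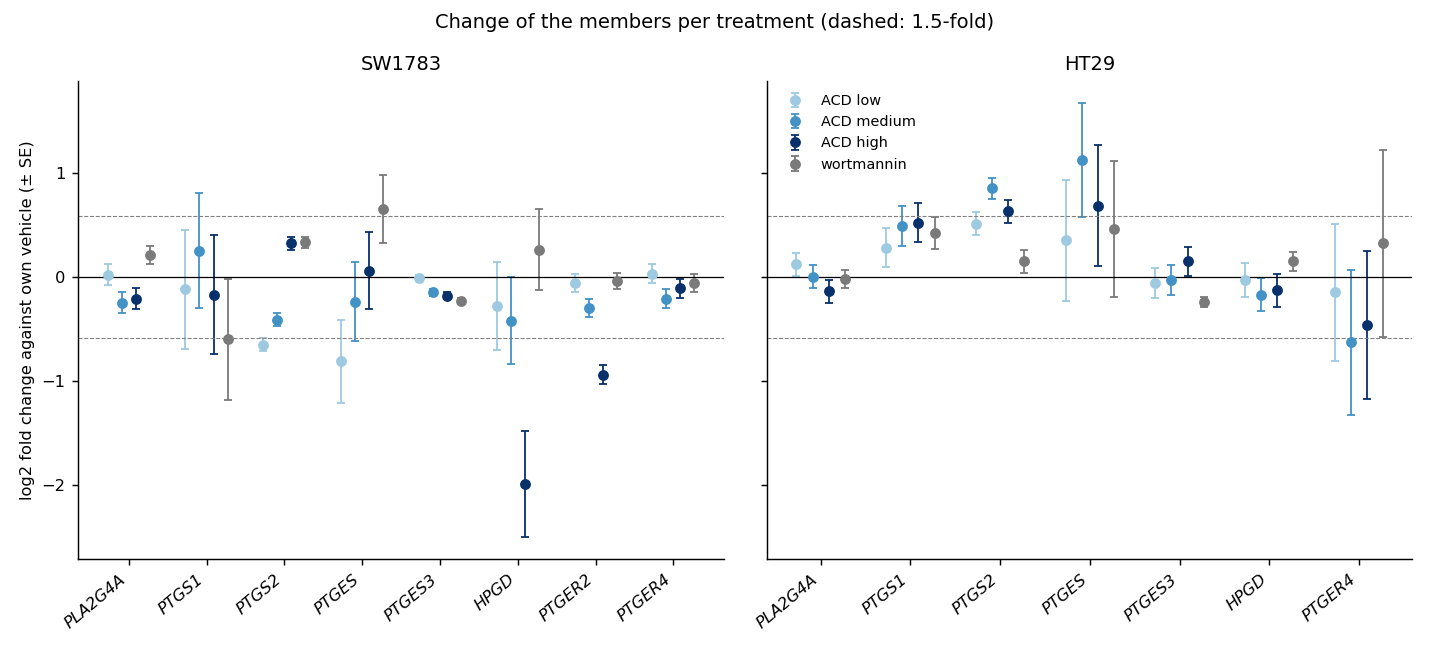
Log2 fold change against the vehicle of the same batch, with its SE as bars, for the members in SW1783 (left) and HT29 (right), with 3 libraries per group. Dashed lines mark 1.5-fold. PTGS2 lies below 0 in SW1783 at the low (-0.65) and medium (-0.41) doses and above 0 in HT29 at all doses. PTGIS in both lines and PTGER2 in HT29 are left out because their counts were near 0.

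Levels of the members are compared between genes on a per-length scale, as TPM, the counts divided by the summed exon length of each gene and scaled to an equal total, with mean ± SD of the 3 vehicle libraries of batch B. In SW1783 PTGES3, a co-chaperone also named p23, was highest at 350.4 ± 14.8. PTGS2 followed at 72.0 ± 2.03, PTGER2 at 51.3 ± 2.24, PTGER4 at 25.5 ± 0.625 and PLA2G4A at 25.4 ± 1.76. PTGER4 and PLA2G4A did not differ beyond their spread. PTGES was at 2.81 ± 0.747, HPGD at 0.823 ± 0.183, PTGS1 at 0.379 ± 0.086 and PTGIS at 0.055 ± 0.033.

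The order in HT29 was another. PTGES3 was at 477.8 ± 29.7 TPM, PLA2G4A at 40.4 ± 5.2, HPGD at 18.3 ± 0.563, PTGS2 at 9.0 ± 1.33 and PTGS1 at 4.21 ± 0.565. PTGES, at 0.47 ± 0.279, and PTGER4, at 0.225 ± 0.023, overlapped in their libraries. PTGER2 and PTGIS had no count in the 3 vehicle libraries, which allows up to 3 counts each over the group and covers counting error only.

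The vehicle levels of the lines were tested directly, since the choice of members did not use this contrast. These vehicle libraries were part of the changes that chose the list, so the test is not fully independent of that choice. The DESeq2 fit on 24 libraries gave 8 of 9 members as DEGs between the batch B vehicles, beside 52.8% of 24140 genes tested. PTGS2 was higher in SW1783, with a log2 difference of 2.68 ± 0.08 (SE, adjusted p = 2.38e-243). PTGER4 was higher by 6.54 ± 0.35 (adjusted p = 1.42e-77) and PTGES by 2.34 ± 0.45 (adjusted p = 6.14e-07). PTGER2 had 1994 counts over the 3 SW1783 vehicles and 0 over the 3 HT29 vehicles, and was at least 769-fold higher in CPM when the HT29 group was set to 3 counts. HT29 exceeded SW1783 in HPGD, with a log2 difference of -4.81 ± 0.23 (adjusted p = 2.45e-98), and in PTGS1, with -3.78 ± 0.32 (adjusted p = 2.35e-32). Smaller differences in the same direction were found for PLA2G4A, with -0.99 ± 0.09 (adjusted p = 5.12e-26), and PTGES3, with -0.77 ± 0.10 (adjusted p = 1.61e-14). PTGIS did not pass (adjusted p = 0.138, with 1 to 3 counts per library in SW1783), although it did between the batch A vehicles, which are no independent repeat. SW1783 thus held the inducible cyclooxygenase and both receptors at the higher level, and HT29 the breakdown enzyme and COX-1.

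**Figure D2:**
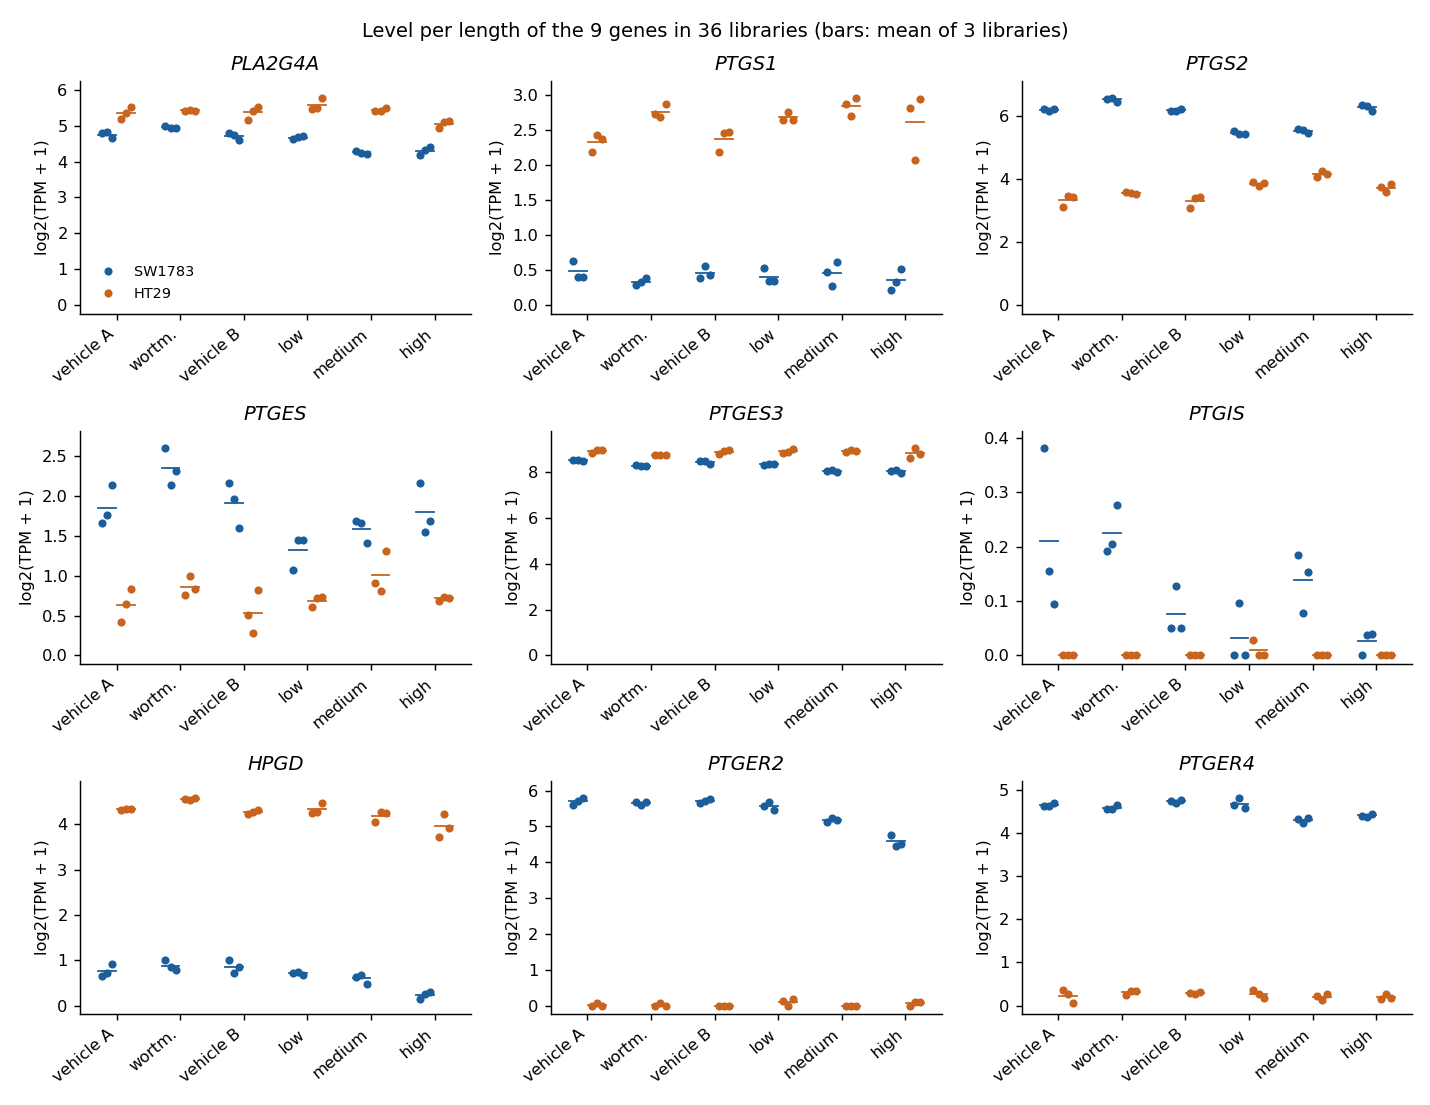
Levels of the 9 members in all 36 libraries as log2(TPM + 1), a level per length, by group, with SW1783 in blue and HT29 in orange. Points are libraries and bars the mean of 3. PTGER2 and PTGER4 are near 0 in all 18 HT29 libraries, and PTGS1 and HPGD are low in all 18 SW1783 libraries.

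PLA2G4A (ENSG00000116711, chr1:186828949-186988981, plus strand) supplies the arachidonic acid and is the neighbour of PTGS2, with 148.0 kb between the annotated ends. Values from here on are DESeq2 normalized counts, scaled within each line and batch. In SW1783 the vehicles had 396, 377 and 349.7, the low dose 375, 373 and 391, the medium dose 328, 316 and 303, and the high dose 299, 323 and 347. All medium and high dose libraries lay below all vehicle libraries. The share of all genes whose groups separate in this way was not counted, so such separations, here and below, are a description only. The log2 fold changes were 0.02 ± 0.10, -0.25 ± 0.10 and -0.21 ± 0.10 (SE). Only the medium dose met the adjusted p-value, and no dose met the fold threshold. The fall from the low to the medium dose, a contrast without the vehicle, was -0.27 ± 0.10 (DESeq2 adjusted p = 0.037). With the replicate number as a block it did not pass (-0.27 ± 0.11, adjusted p = 0.0934), nor in any of the 6 fits that left out a single library (adjusted p = 0.0628 to 0.175). With wortmannin it had 529.9, 503 and 504 against 456, 459.5 and 414, a change of 0.21 ± 0.09 that did not meet the adjusted p-value. In HT29 its log2 fold changes lay between -0.14 and 0.12 at the 3 doses and the groups overlapped with the vehicle. Without replicate 2 of the high dose the value there was -0.23 ± 0.10. Its change did not pass in the difference between the lines at any dose.

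PTGS2 (ENSG00000073756, chr1:186671791-186680922, minus strand) had 1974, 1985 and 2109.6 normalized counts in the batch B vehicles of SW1783. At the low dose it had 1369.7, 1240.3 and 1243, and at the medium dose 1581, 1551 and 1430.4. At the high dose it had 2644, 2564 and 2356. In normalized counts the libraries of these 4 groups did not overlap, with the low dose at the bottom, then the medium dose, the vehicle and the high dose. This order depended on the scaling. In TPM the high dose, at 80.3, 78.5 and 71.4, overlapped with the vehicle, at 70.5, 71.1 and 74.3. The low dose, at 45.0, 42.7 and 42.0 TPM, overlapped with the medium dose, at 47.5, 46.3 and 43.2 TPM. The fold against vehicle was 0.635 at the low dose, 0.751 at the medium dose and 1.25 at the high dose, with log2 fold changes of -0.65 ± 0.06, -0.41 ± 0.06 and 0.32 ± 0.06 (SE). Neither the medium nor the high dose reached the 1.5-fold limit of a DEG. Whether fewer cells carried the transcript or each cell held less of it cannot be told apart in such bulk libraries.

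The doses were also compared with each other, without the vehicle. These contrasts use the treated libraries again and are no independent evidence. The deviations of same-numbered libraries of the low and medium doses in SW1783 were correlated (r = 0.124 to 0.193 over 3 pairs), so for that contrast the value with a replicate block is given where it changed a call. PTGS2 in SW1783 was higher at the medium than at the low dose by a log2 difference of 0.24 ± 0.06 (DESeq2 adjusted p = 0.000499) and higher at the high than at the medium dose by 0.73 ± 0.06 (adjusted p = 8.18e-37). Among the members with an adjusted p-value in SW1783, 0 of 7 were DEGs between medium and low (1.91% of all genes) and 3 of 8 (PTGS2, PTGER2 and HPGD) between high and medium (9.79% of all genes). In HT29 the corresponding counts were 0 of 5 (0.159%) and 0 of 6 (0.687%).

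In HT29 PTGS2 started from a lower level and lay above vehicle after ACD. The vehicle libraries had 335, 381 and 398 normalized counts, the low dose 589, 488 and 510.1, the medium dose 636, 724 and 656, and the high dose 587, 569 and 577. Every treated library lay above every vehicle library. The log2 fold changes were 0.51 ± 0.11, 0.85 ± 0.10 and 0.63 ± 0.11 from the low to the high dose. The order of the low and high doses depended on the scaling. In mean TPM ± SD the low dose, at 13.5 ± 0.61, lay above the high dose, at 12.3 ± 1.19, and their libraries overlapped. The low dose met the adjusted p-value but not the fold threshold, and with edgeR it missed both. Without replicate 2 of the high dose the change there was 0.64 ± 0.11. The call at the high dose sat near the threshold, since it was 0.57 without replicate 1 of the vehicle and 0.49 with scaling to library totals. Between neighbouring doses the differences in HT29 did not pass, with 0.35 ± 0.10 for medium against low (DESeq2 adjusted p = 0.103) and -0.22 ± 0.10 for high against medium (adjusted p = 0.452).

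The difference between the lines in the response of PTGS2, the change in SW1783 minus that in HT29, was -1.18 ± 0.11 on the log2 scale at the low dose (DESeq2 interaction, adjusted p = 5.73e-23), -1.29 ± 0.11 at the medium dose (adjusted p = 7.34e-29) and -0.36 ± 0.11 at the high dose (adjusted p = 0.00635). When HT29 lost replicate 2 of that dose the last was -0.37 ± 0.11 (adjusted p = 0.00442). The changes in both lines belong to the contrasts that chose the list, so that neither these values nor the line differences of other members are independent evidence. Over all genes the share with a DEG-sized difference between the lines was 0.261%, 3.31% and 14.6% from the low to the high dose, and of the members with an adjusted p-value 1 of 7 (PTGS2), 1 of 8 (PTGS2) and 1 of 8 (HPGD) reached it.

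With wortmannin PTGS2 had a higher mean than its vehicle in both lines. In SW1783 the batch A vehicles had 2408, 2294 and 2459 normalized counts and the wortmannin libraries 3053, 3121 and 2797, all above the vehicle, with a log2 fold change of 0.33 ± 0.05. In HT29 the vehicles had 319, 361 and 364 and the treated libraries 396, 392 and 375, with 0.15 ± 0.11. The difference between the lines in the response of PTGS2 to wortmannin did not pass (0.15 ± 0.10, DESeq2 interaction, adjusted p = 0.342). For wortmannin 0 of the 7 members with an adjusted p-value reached a DEG-sized difference between the lines, beside 3.39% of all genes.

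**Figure D3:**
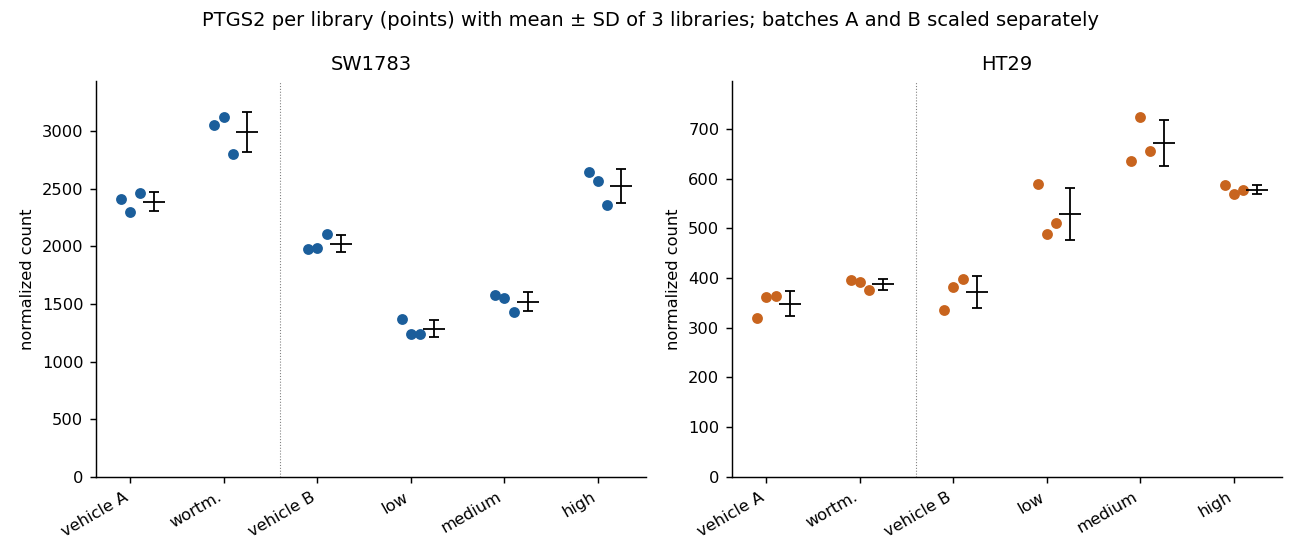
PTGS2 in normalized counts, a level scaled separately in batches A and B, for each library (points) with the mean ± SD of 3 libraries, in SW1783 (left) and HT29 (right). In SW1783 the low dose lies lowest, at 1284 ± 73.9, and the high dose above the vehicle of batch B, while in HT29 the 9 ACD libraries all lie above the 3 vehicles of batch B.

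PTGS1 (ENSG00000095303, chr9:122370530-122395703), the constitutive cyclooxygenase, had only 5 to 20 raw counts per library in SW1783, and its groups overlapped there at all doses. In HT29 it had 168, 188 and 194 normalized counts in the batch B vehicles, 232, 231 and 206 at the low dose, 267, 228 and 279 at the medium dose and 296, 176 and 307 at the high dose. The low and medium dose libraries lay above the vehicles, with log2 fold changes of 0.28 ± 0.19 and 0.49 ± 0.19, and neither met the adjusted p-value. At the high dose the value was 0.52 ± 0.19, and replicate 2 was the only library of the group within the range of the vehicles. Without it the value was 0.71 ± 0.14 and PTGS1 became a DEG. With wortmannin it had 212, 206 and 235 against 156, 167 and 162 in the batch A vehicles of HT29, a change of 0.42 ± 0.15 that met the adjusted p-value but not the fold threshold. Both cyclooxygenase genes therefore had higher means than the vehicle in HT29 at every dose, although PTGS1 did not pass.

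The terminal synthases of prostaglandin E2 differed widely in level. PTGES (ENSG00000148344, chr9:129738331-129753042, minus strand), the inducible microsomal synthase, had 12 to 61 raw counts per library in SW1783 and 4 to 20 in HT29. In SW1783 its vehicle libraries had 33.8, 28.0 and 19.8 normalized counts and those of the low dose 11.5, 17.3 and 17.8, which did not overlap. The log2 fold change there was -0.81 ± 0.40, and DESeq2 gave no adjusted p-value at this mean. The medium and high doses lay at -0.24 ± 0.38 and 0.06 ± 0.37. With wortmannin PTGES had 57.5, 38.6 and 44.7 against 24.5, 26.8 and 38.5 in SW1783, a change of 0.65 ± 0.33 that did not pass in DESeq2 and was a DEG with edgeR. In HT29 its values were 0.35 ± 0.58, 1.12 ± 0.55 and 0.68 ± 0.58 at the 3 doses, and none passed. Without replicate 2 of the high dose the last was 0.59 ± 0.68.

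PTGES3 (ENSG00000110958, chr12:56663341-56688408, minus strand) was well counted, and 5 processed pseudogene copies in the table had at most 24 counts, although RSEM could share reads among them. In SW1783 it had 6271, 6162 and 5871 normalized counts in vehicle, against 6082, 6031 and 6059 for the low dose. At the medium dose it had 5499, 5670.1 and 5325, and at the high dose 5408, 5554 and 5198, all below the vehicles. The log2 fold changes were -0.01 ± 0.03, -0.15 ± 0.03 and -0.18 ± 0.03, and the medium and high doses met the adjusted p-value alone. Wortmannin changed it by -0.23 ± 0.03 in SW1783 and by -0.24 ± 0.05 in HT29, with the same limit.

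At the high dose in HT29 PTGES3 had 11584, 17361 and 11907 normalized counts, against 12335, 11991 and 12478 in vehicle, so that replicate 2 alone was above and the others below. The log2 fold change was 0.15 ± 0.14 with replicate 2 and -0.06 ± 0.05 without it. The difference between the lines at the high dose was -0.37 ± 0.14 (DESeq2 adjusted p = 0.0307), and -0.17 ± 0.06 without that library (adjusted p = 0.0168). With library totals as scaling it was -0.29 (adjusted p = 0.0722). When a single library was left out it ranged from -0.47 to -0.17, and the adjusted p-value was 0.05 or over in 5 of 12 cases: without HT29 vehicle replicate 2, SW1783 vehicle replicate 1 or 2, or SW1783 high dose replicate 1 or 3 (highest 0.0756). PTGIS (ENSG00000124212), the prostacyclin synthase, had 0 to 9 counts per library in SW1783 and 0 in 17 of 18 HT29 libraries, and no fold is given for it.

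HPGD (ENSG00000164120, chr4:174490175-174523154, minus strand), the enzyme that inactivates prostaglandin E2, fell in SW1783 at the high dose from a low level. The vehicles had raw counts of 28, 21 and 22, and the high dose 3, 7 and 8. In normalized counts these were 28.7, 18.4 and 22.9 against 3.5, 6.3 and 7.5, without overlap, and the low and medium doses had 17.8 to 20.2 and 13.2 to 20.5. The log2 fold changes were -0.28 ± 0.42, -0.42 ± 0.42 and -1.99 ± 0.51. The high dose was lower than the medium dose by a log2 difference of -1.57 ± 0.52 (DESeq2 adjusted p = 0.00788), and leaving out a single library gave up to 0.0521. A long non-coding RNA gene, ENSG00000251584, overlaps its exons on the opposite strand.

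HPGD was far better counted in HT29. The vehicles had 804, 730.2 and 767 normalized counts, and the high dose 573, 927 and 613, with replicate 2 again apart. The log2 fold change was -0.13 ± 0.16 with that library and -0.37 ± 0.10 without it, which met the adjusted p-value but not the fold threshold. The low and medium doses lay at -0.03 ± 0.16 and -0.17 ± 0.16, the latter with all libraries below the vehicles, and neither passed. The difference between the lines at the high dose was -1.88 ± 0.44 (DESeq2 adjusted p = 0.000133), and -1.65 ± 0.40 when that HT29 library was left out (adjusted p = 0.00024).

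PTGER2 (ENSG00000125384, chr14:52314305-52328598, plus strand), the EP2 receptor, was lower in SW1783 at the medium and high doses. The vehicles had 619, 641 and 685 normalized counts, against 634, 653 and 578 at the low dose, 507, 552 and 520.1 at the medium dose and 386, 309 and 326 at the high dose. The vehicle, medium and high dose groups did not overlap with each other, while the low dose overlapped with the vehicle. The log2 fold changes were -0.06 ± 0.09, -0.30 ± 0.09 and -0.94 ± 0.09, the last a fold of 0.522. Against the dose below, the medium dose differed by -0.24 ± 0.09 (DESeq2 adjusted p = 0.037) and the high dose by -0.64 ± 0.09 (adjusted p = 5.24e-11). With a replicate block the medium dose missed the threshold (-0.24 ± 0.10, adjusted p = 0.0877), as it did in 5 of 6 fits without a single library (highest 0.179). Wortmannin gave -0.04 ± 0.08, with overlapping groups. In HT29 it had 0 to 2 counts in each of the 18 libraries, so that no change could be detected there at this depth.

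PTGER4 (ENSG00000171522, chr5:40679915-40693735, plus strand), the EP4 receptor, gave smaller values. In SW1783 it had 464, 448 and 478 normalized counts in the vehicles, then 468, 507 and 437 (low dose), 408, 386 and 409 (medium dose) and 427, 414 and 442 (high dose). The medium and high dose libraries lay below the vehicles, with log2 fold changes of -0.21 ± 0.09 and -0.11 ± 0.09 that did not meet the adjusted p-value, after 0.03 ± 0.09 at the low dose. The medium dose was lower than the low dose by -0.23 ± 0.09 (DESeq2 adjusted p = 0.045), and high against medium gave 0.09 ± 0.09 (adjusted p = 0.441). The former missed the threshold with a replicate block (-0.23 ± 0.10, adjusted p = 0.105) and in 5 of 6 fits without a single library (highest 0.267). In HT29 it had 1 to 9 counts per library. The gene lies within an intron of TTC33 on the opposite strand.

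**Figure D4:**
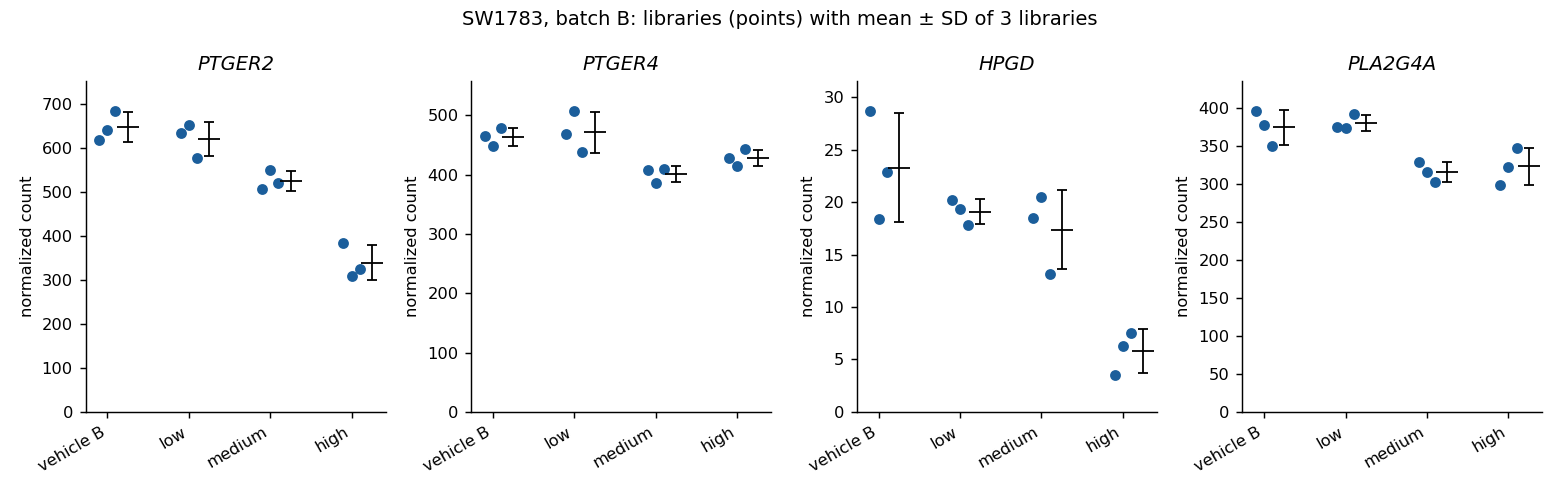
Normalized counts of PTGER2, PTGER4, HPGD and PLA2G4A in the 12 SW1783 libraries of batch B, as points, with the mean ± SD of 3 libraries, by dose. PTGER2 steps down to 340 ± 40.3 at the high dose and HPGD to 5.8 ± 2.1, while PTGER4 stays between 400.9 and 470.9 in its group means.

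Keratin 18 also fell in SW1783 at the high dose. The summed level of the 6 epithelial markers went from 222 to 231 CPM in the batch B vehicles to 68.7 to 75.1 CPM at the high dose, and KRT18 made up nearly all of it, as EPCAM, KRT20, CDX2, VIL1 and CDH1 stayed at or below 0.202 CPM in all 18 libraries. The summed level of the 6 mesenchymal and astrocyte markers went from 14600 to 14900 CPM to 12400 to 12500 CPM. Its members moved unequally. In mean TPM ± SD, COL1A2, a collagen chain, went from 790 ± 22.9 to 182 ± 8.95, CD44 from 1112 ± 14.7 to 730 ± 8.24 and FN1, fibronectin, from 1243 ± 7.69 to 1058 ± 16.5. VIM, the intermediate filament vimentin, was at 3333 ± 128 in vehicle and 3485 ± 29.1 at the high dose. Their part in the falls of PTGER2 and HPGD was not tested.

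Another 49 genes of the pathway were placed in 7 lists from general knowledge, again with earlier results known. In SW1783 0 of the 20 with an adjusted p-value were DEGs at the low dose, beside 0.119% of all genes. At the medium dose 4 of 29 were DEGs (3.78% of all genes) and at the high dose 12 of 38 (17.7%). Of those 12, 6 were upregulated and 6 downregulated. The median log2 fold change of the 38 was 0.15, against -0.01 over all genes tested. With wortmannin 0 of 30 were DEGs in SW1783 (2.67% of all genes). In HT29 they were 0 of 30 at the low dose (0.285% of all genes) and 0 of 30 at the medium dose (0.786%). They were 1 of 25 at the high dose (3.13%) and 1 of 24 with wortmannin (2.7%). Without replicate 2 of the high dose, 2 of 25 (AKR1C3 and NR4A1) were DEGs there, beside 4.0% of all genes. Because earlier results were known when the lists were written, nothing is read from these counts.

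SLCO2A1 and the receptors PTGFR and TBXA2R fell in SW1783. SLCO2A1, the prostaglandin uptake transporter, had 245, 237 and 240.4 normalized counts in vehicle, then 220.3, 211 and 218 (low dose), 153, 150.0 and 161 (medium dose) and 76.4, 86.5 and 79.5 (high dose). Its groups did not overlap, and the log2 fold changes were -0.64 ± 0.13 (medium dose, DESeq2 adjusted p = 8.76e-06) and -1.57 ± 0.14 (high dose, adjusted p = 1.16e-26). PTGFR, the receptor of prostaglandin F2 alpha, went from 521.4 ± 22.7 to 337.6 ± 18.9 (SD, n = 3), a change of -0.63 ± 0.09 (adjusted p = 4.14e-11). TBXA2R, the thromboxane receptor, went from 63.1 ± 8.7 to 27.3 ± 7.5, a change of -1.22 ± 0.29 (adjusted p = 7.14e-05). These were the 3 DEGs among 5 tested receptors and 5 transport and breakdown genes, beside 17.7% of all genes, and all 3 genes had at most 2 raw counts per library in HT29.

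Of the other synthases, 0 were upregulated and 3 of 7 downregulated in SW1783 at the high dose, where 17.7% of all genes were DEGs in either direction. PRXL2B, which makes prostaglandin F2 alpha, changed by -0.70 ± 0.08 on the log2 scale (DESeq2 adjusted p = 9.27e-19), TBXAS1, the thromboxane synthase, by -0.83 ± 0.29 (adjusted p = 0.0114), and AKR1C3, a prostaglandin F synthase, by -0.59 ± 0.13 (adjusted p = 1.01e-05). At the medium dose AKR1C3 was already a DEG, as 1 of 7 beside 3.78% of all genes. Its level was 15.1 ± 1.07 TPM in vehicle, 8.10 ± 1.34 at the medium dose and 8.53 ± 0.248 at the high dose (SD, n = 3). The line difference of AKR1C3 at the medium dose was DEG-sized too, beside 3.31% of all genes. In HT29 AKR1C3 rose at the high dose by 1.04 ± 0.18 (adjusted p = 2.43e-07), and by 0.82 ± 0.12 without replicate 2, whose value was 3447 normalized counts against 2063 and 2508. The lines differed for AKR1C3 by -1.67 ± 0.22 (adjusted p = 7.85e-13), and by -1.46 ± 0.17 without that library (adjusted p = 1.42e-15). AKR1C3 has close paralogs, so its counts are uncertain to that extent.

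Among the genes of arachidonate release, 3 of 6 were upregulated and 0 downregulated as DEGs in SW1783 at the high dose, again beside 17.7% of all genes. MGLL, the lipase that frees arachidonic acid from its monoacylglycerol, had 284, 265 and 258 normalized counts in vehicle and 560.3, 502 and 572 at the high dose, a log2 change of 1.02 ± 0.10 (DESeq2 adjusted p = 2.54e-25), after 0.62 ± 0.10 at the medium dose. PLA2G6 changed by 1.01 ± 0.21 (adjusted p = 9.36e-06). PLA2G4C changed by 1.57 ± 0.48 (adjusted p = 0.00282) at 26.1 ± 4.2 normalized counts (SD, n = 3). The phospholipase of the member list, PLA2G4A, was lower than vehicle in the same libraries. The line difference for MGLL at the high dose was 1.28 ± 0.15 (adjusted p = 6.03e-16), and 1.14 ± 0.09 without replicate 2 of HT29 (adjusted p = 1.28e-31).

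ZFP36L1 and ZFP36 encode proteins that bind AU-rich elements of mRNAs, a class to which the PTGS2 mRNA belongs, and both were upregulated in SW1783 at the high dose, as 2 of 6 genes of their list beside 17.7% of all genes. ZFP36L1 had 5150.2, 5295 and 5383 normalized counts in vehicle, 8080.3, 8463 and 8226 at the medium and 13017, 12589 and 13307 at the high dose. It showed a log2 fold change of 0.65 ± 0.03 (medium dose, DESeq2 adjusted p = 4.21e-103) and a fold of 2.46 (high dose), for which DESeq2 returned an adjusted p-value of 0 to its numeric precision. ZFP36 changed by 0.81 ± 0.10 at the high dose (adjusted p = 1.47e-14) and had 303.6 ± 26.0 at the medium dose against 297.7 ± 22.2 in vehicle (SD, n = 3). In HT29 neither was a DEG at any dose.

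Of the 6 cAMP response genes, which EP2 and EP4 signalling can induce, 1 was a DEG against vehicle in SW1783 at the high dose, beside 17.7% of all genes. NR4A1 had 114, 98.1 and 138 normalized counts in vehicle and 221, 243 and 256 at the high dose, a log2 change of 1.05 ± 0.16 (DESeq2 adjusted p = 5.04e-10). Between the high and medium doses, PDE4D (0.63 ± 0.07, adjusted p = 7.83e-20) and PDE4B (0.67 ± 0.17, adjusted p = 0.000425) were DEGs as well as NR4A1, 3 of 6 beside 9.79% of all genes. NR4A1 in HT29 had 312, 181 and 366 at the high dose, a change that did not pass with all libraries. Without replicate 2 it was a DEG with 0.63 ± 0.14 (adjusted p = 0.000109).

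In the lipoxygenase branch, which turns arachidonic acid into leukotrienes, ALOX5 was the gene called against vehicle. In HT29 it rose with wortmannin from 318, 323 and 335 to 529, 503 and 552 normalized counts, a log2 change of 0.70 ± 0.10 (DESeq2 adjusted p = 1.02e-09). SW1783 had at most 1 normalized count of it in each library.

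**Figure D5:**
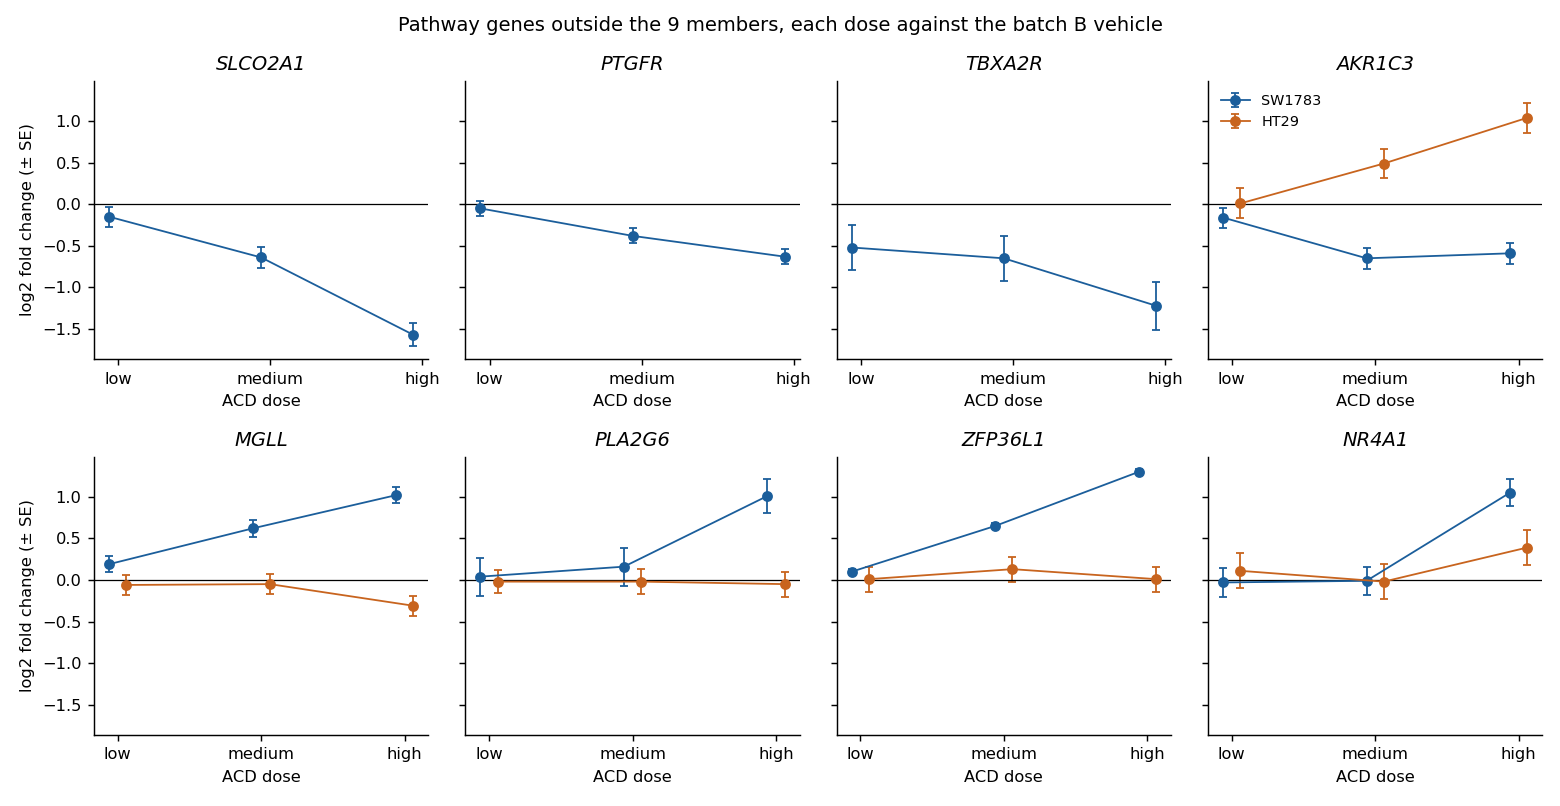
Log2 fold change with its SE, against the batch B vehicle, of 8 pathway genes outside the members by ACD dose, in SW1783 (blue) and HT29 (orange), with 3 libraries per group. SLCO2A1 reaches -1.57 and MGLL 1.02 in SW1783 at the high dose, and AKR1C3 moves in opposite directions in the lines. HT29 is left out for SLCO2A1, PTGFR and TBXA2R, whose counts there were near 0.

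The genes whose pattern was most like that of PTGS2 were sought by Pearson's r of log2(normalized count + 1) over the 12 SW1783 libraries of batch B, among 11264 genes with a mean of at least 100. The libraries share 4 groups and their vehicle, so r mainly reflects the group means and is a description. The highest were HAPSTR1 (r = 0.963), SLC38A2 (0.963), KPNA4 (0.94), PDE5A (0.935) and KLF9 (0.935). SLC38A2, an amino acid transporter, had group means of 9598, 8133, 9055 and 11028 normalized counts from vehicle to the high dose. KLF9 went through 1348, 1130.2, 1192 and 1687. The lowest were ZNF252P (r = -0.972), GPX1 (-0.971), KIAA0586 (-0.96), SMS (-0.948) and B3GALT6 (-0.945). GPX1, a glutathione peroxidase, had 3707, 4072, 3985 and 3446 in the same order, so that its low dose was highest and its high dose lowest. Over all 18 SW1783 libraries PDE5A alone stayed among the 5 highest, with r = 0.931.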

How the data were processed

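The 36 libraries, 3 per group, were deposited by the authors as RSEM expected counts per gene, without normalization. Reads from directional mRNA libraries had been trimmed with Trim Galore, aligned with STAR and counted with RSEM 1.3.3 against a GRCh38 annotation (the methods name the genome also as hg19). The strand setting and treatment of multi-mapping reads are not given in the sources used here. Positions are those of GENCODE v44.

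The 9 members and the gene lists were chosen with earlier results of these data known. Expected counts were rounded, since 8.84% of values were not whole. DESeq2 1.42.0 Wald tests (two-sided, Benjamini-Hochberg over all genes, default independent filtering) in R 4.3.3 were fitted per line and batch, and over both lines for line differences (24 libraries for ACD, 12 for wortmannin). The DEG threshold was 0.05 for the adjusted p-value together with 0.585 for the size of the log2 fold change. Errors of fold changes are SE, and a count of 0 allows up to 3 counts. edgeR 4.0.16, other scalings, filters and left-out libraries were alternatives. Scripts were tested on simulated data. All members were named, and of each list the called genes, up to 3 with the largest change per contrast, with 5 genes at each end of the correlation with PTGS2. NR4A1 in HT29 was named after its values were seen.

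Same-numbered vehicles of the 2 batches resembled each other (chi-square per degree of freedom 1.46 to 1.64) more than vehicles of a single batch did (2.06 to 17.3), and they entered separate comparisons. Replicate numbers were checked by the correlation of same-numbered libraries' deviations from their group means. Every pair was over 0.1 only between the low and medium doses of SW1783 (0.124, 0.158 and 0.193). The main fits have no block.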

Additional observations from a re-analysis of the deposited data

Results flagged for a closer look

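The response to ACD differed between the cell lines for 3 members, by the DESeq2 interaction over the 24 batch B libraries with an adjusted p-value under 0.05. The treated libraries behind these differences also chose the members, so they are no independent evidence. For PTGS2 the change in SW1783 minus that in HT29 was -1.18 on the log2 scale at the low dose, -1.29 at the medium dose and -0.36 at the high dose. At the low and medium doses all treated libraries of SW1783 lay below their vehicles and all treated libraries of HT29 above theirs. For HPGD the difference at the high dose was -1.88. For PTGES3 it was -0.37 at the high dose, and -0.17 without replicate 2 of that dose in HT29, and its call depended on single libraries. Line, culture medium, CO2 supply and cell density cannot be told apart in these differences.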

How the results depend on the processing

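Counts of members called as DEGs were recomputed under each alternative. They kept their value with TMM size factors, with a low-count filter and with fits restricted to the compared groups. With edgeR the count became 1 (PTGES) for wortmannin in SW1783 and 2 for the line difference at the high dose, where PTGER2 was added, a gene at 0 to 2 counts in HT29. Scaling to library totals, which moved the median log2 fold change of all genes to -0.13 at the high dose in both lines, gave 0 members for HT29 at the high dose, with PTGS2 at 0.49. Without the fold threshold the counts were 1, 4, 4 and 2 in SW1783 (low, medium, high, wortmannin) and 1, 1, 1 and 2 in HT29. Leaving out a library gave 0 to 2 members for HT29 at the high dose (0 without vehicle replicate 1, 2 without replicate 2 of the dose, where PTGS1 was added), 1 to 2 for the line difference at the medium dose (2 without HT29 vehicle replicate 3, PTGES added) and 1 to 2 at the high dose (2 when either line lost high dose replicate 1, PTGER2 added). Of the 111 recomputed values of called members, 109 kept their call, 2 lost it and 0 reversed, and of 1293 values of members not called, 6 gained one. Between vehicles 8 members were called with edgeR and 9 in batch A, where PTGIS was added. In the main fit 52.8% of all genes were DEGs between the batch B vehicles. Shares over all genes are not given here for most alternatives, so nothing is read from these counts of members. Of the 5 genes most like PTGS2, 1 remained over all 18 SW1783 libraries. The cause of these shifts was not tested. The replicate block left every count of DEGs among the members against vehicle, between doses and in the line differences unchanged, for example 1 (PTGS2) at the low dose in SW1783. Deviations of same-numbered libraries from their group means had r of -0.461 to 0.326 over the 42 pairs of both lines and batches, and the numbers were taken as pairs only for the low and medium doses of SW1783. Alternatives for neighbouring doses were added after seeing the data. By the adjusted p-value alone, the count for medium against low in SW1783 went from 5 to 2 (PTGS2 and PTGES3) with the replicate block, and to 2 to 4 without a single library. In HT29 the count went from 0 to 1 (PTGS2) for high against medium with library totals, and to 0 to 1 for medium against low without a single library (1 without low dose replicate 1). Against vehicle, where the numbers were not taken as pairs, PLA2G4A at the medium dose in SW1783 and PTGS1 with wortmannin in HT29 missed the adjusted p-value with the block. Depth limits PTGS1, PTGES, PTGIS and HPGD in SW1783 and PTGES, PTGER2, PTGER4 and PTGIS in HT29.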
